A study of Homo sapiens with 5 samples.

Results

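The p53 network and the cell cycle machinery were followed through DRIP-seq of the established human line PC-9, derived from a lung adenocarcinoma. The set comprised 59 named genes, 23 of them regulators, relatives or targets of p53 and 36 of them cyclins, cyclin-dependent kinases and their inhibitors, Rb and E2F genes, replication licensing factors, CDC25 phosphatases and mitotic genes. A peak counted for a gene when the deposited annotation assigned it to that symbol. This gave 64 peaks out of 80323, assigned to 24 of the 59 genes, while 12325 genes of any kind had at least 1 assigned peak.

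Libraries exp 1 and exp 2 were taken as FANCI knockdown cells, the condition named by the series' design text, and control 1 and control 2 as their controls. FANCI belongs to the Fanconi anaemia pathway, which repairs interstrand crosslinks. The labels give neither the knockdown reagent nor the kind of control, nor whether the libraries within a group stem from separate cultures. The p-values therefore rest on the spread between these libraries alone, and that spread may be technical. All 4 libraries were made from sonicated PC-9 DNA precipitated with S9.6, an antibody to RNA:DNA hybrids, and 1 input library without S9.6 supplied a read count under each peak. No RNA was analysed here, so neither the FANCI level nor the expression of PC-9 markers was checked.

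An R-loop forms when a transcript pairs with its template strand and leaves the other DNA strand single. Such hybrids are found at promoters, along gene bodies and at transcription termination sites, and strands rich in G over C favour them. p53 is a transcription factor that is stabilised after DNA damage and activates genes of cell cycle arrest, apoptosis and repair. Many of the cell cycle genes are transcribed in waves, through E2F in late G1 and through the cell cycle homology region (CHR) and CCAAT boxes of genes used in G2 and mitosis.

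The deposited lists held 16785 and 14354 peaks in exp 1 and exp 2, and 25281 and 23903 in control 1 and control 2. DRIP reads over these peaks numbered 801196 and 646455 in exp and 1266127 and 1001453 in control. Reads were counted for each library under its own peaks alone, so a gene without a peak in a library has no read count there. A relative depth was derived from the background level of the peak caller, divided by the shortest peak width of each library. It was 1.01 in exp 1, 0.866 in exp 2, 1.00 in control 1 and 0.920 in control 2. Before that division the background was 1.417, 1.197, 1.235 and 1.326 in the same order, with control 2 above control 1. The fewer peaks of the exp libraries touch every count of genes that follows, and the part that calling and depth play in them was not tested.

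Promoters came first, because CDC25C and CDC25B were the members with a peak over a RefSeq promoter window, from 250 bases before to 50 bases after a transcript start. Such windows were available for 49 of the 59 members. Both overlaps came from control 1. The share of all genes with such an overlap is not given here, so the count of members cannot be read as high or low. CDC25C encodes the phosphatase that activates CDK1 at entry into mitosis, and CDC25B a phosphatase that acts slightly earlier. In both sequences, from RefSeq GRCh38.p14 and written 5′ to 3′ on the coding strand, capitals mark the bases under the control 1 peak and the last 50 bases lie downstream of the transcript start. The CDC25C window lies at chr5:138331828-138332127 on the minus strand, and the CDC25B window at chr20:3799798-3800097 on the plus strand.
CDC25C: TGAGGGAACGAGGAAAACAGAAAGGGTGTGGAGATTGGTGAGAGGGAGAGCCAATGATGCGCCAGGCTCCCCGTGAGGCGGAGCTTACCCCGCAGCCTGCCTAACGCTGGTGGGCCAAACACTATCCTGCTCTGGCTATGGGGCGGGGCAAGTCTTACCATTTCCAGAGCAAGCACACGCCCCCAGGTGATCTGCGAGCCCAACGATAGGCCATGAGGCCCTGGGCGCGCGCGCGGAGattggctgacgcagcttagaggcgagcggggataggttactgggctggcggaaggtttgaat
CDC25B: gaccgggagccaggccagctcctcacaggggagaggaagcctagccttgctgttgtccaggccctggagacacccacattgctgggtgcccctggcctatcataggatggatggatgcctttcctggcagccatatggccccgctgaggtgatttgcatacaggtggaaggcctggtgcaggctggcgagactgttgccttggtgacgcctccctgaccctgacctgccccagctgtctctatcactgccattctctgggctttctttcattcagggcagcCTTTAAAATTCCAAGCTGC

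The CDC25C peak, at chr5:138331890-138332206, held 26 DRIP and 4 input reads and covered positions 1 to 238 of the window, upstream of the transcript start. A search of both strands found the CHR letters TTTGAA at positions 294 to 299, outside the peak. CCAAT was read on the coding strand at positions 51 to 55 and on the other strand at 34 to 38, both under the peak, and at 239 to 243 on the other strand, next to its edge. A p53 half-site match stood at positions 146 to 155, under the peak. It was found on both strands because the search pattern, though not the matched sequence, is its own reverse complement. The transcript start of this window lies within the gene, and the peak's centre was 6.31 kb downstream of the most upstream RefSeq end of CDC25C. The CDC25B peak at chr20:3800079-3800580, with 35 DRIP and 4 input reads, covered 19 bases of its window and ran on into the gene, where the annotation classed it as gene body.

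Across the 35116 RefSeq windows of all genes, 15.2% held TTTGAA, 34.6% CCAAT, 6.55% the E2F letters TTCCCGC, 11.5% TATAAA and 6.63% the p53 half-site. Of the 43 windows of cell cycle members, 11 held TTTGAA, among them those of CDK1, CDC20, PLK1, BUB1B, MAD2L1 and MKI67. CCAAT stood in 23 of these 43 windows, and TTCCCGC in 5, from CDC25B, CDC25C, CDT1 and E2F3. Of the 31 windows of p53 network members, 17 held CCAAT, 5 held TTTGAA and 4 held the p53 half-site, namely those of AEN, DDB2, FAS and SESN1. Windows of 1 gene can overlap, so these counts are not independent, and a match describes letters only.

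Of the 59 members, 9 held a peak in exp 1 and 8 in exp 2, against 12 in control 1 and 17 in control 2. As shares these were 15.3% (95% Wilson interval 8.24 to 26.5) and 13.6% (7.03 to 24.5) in exp, and 20.3% (12.0 to 32.3) and 28.8% (18.8 to 41.4) in control. Among all 20056 RefSeq protein-coding genes, 17.8% and 14.3% held a peak in exp 1 and exp 2, and 24.4% and 24.9% in control 1 and control 2. These genome-wide shares lay inside the members' intervals in all 4 libraries, and over any library 24 of 59 (40.7%) stood beside 41.4% of protein-coding genes. The mean was 8.5 ± 0.707 members in exp and 14.5 ± 3.54 in control (SD, n = 2 each), a ratio of 0.586. Both exp libraries lay below both controls, with an exact two-sided permutation p = 0.333, the smallest that 2 libraries against 2 can give. This separation ended when all lists were cut to the 14354 peaks with the highest −log10 q, the number in exp 2. Then 9 and 8 members held a peak in exp, against 8 and 12 in control, a difference of -1.5 with overlapping groups (exact permutation p = 1.0). For all genes with a peak the ratio was 0.647, and members made up 0.178% and 0.198% of them in exp and 0.170% and 0.243% in control, with overlapping groups. The exp minus control difference of -6 members became -3.5 without control 2, and that of the share, -0.0182 percentage points, became -0.0544 without control 1, -0.0284 without exp 2, -0.00807 without exp 1 and 0.0179 without control 2.

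By branch, the lower count of member genes over all deposited peaks came from the p53 network. The longer lists of other genes, given below, ran otherwise, with overlapping groups for p53 genes and separated groups for cell cycle genes. Of its 23 genes, 5 and 2 held a peak in exp 1 and exp 2, against 7 and 12 in control 1 and control 2, a ratio of means of 0.368 with groups that did not overlap (exact permutation p = 0.333). Of the 36 cell cycle genes, 4 and 6 held a peak in exp, against 5 and 5 in control, a difference of 0 with overlapping groups (exact permutation p = 1.0). At the equal number of 14354 peaks the p53 network had 5 and 2 genes in exp, against 5 and 9 in control, so the groups met at 5 (difference -3.5, exact permutation p = 0.667). The cell cycle genes then had 4 and 6 in exp, against 3 and 3 in control, a difference of 2.0 in the other direction (exact permutation p = 0.333). The percentage of p53 network genes minus that of cell cycle genes averaged 1.33 ± 13.2 in exp and 27.4 ± 15.4 in control (SD, n = 2 each; exact permutation p = 0.333). The share of the p53 network was 21.7% (9.66 to 41.9) in exp 1, 8.70% (2.42 to 26.8) in exp 2, 30.4% (15.6 to 50.9) in control 1 and 52.2% (33.0 to 70.8) in control 2. The share of protein-coding genes, 17.8%, 14.3%, 24.4% and 24.9% in the same order, lay inside the interval in the first 3 of these libraries and below it in control 2. Such intervals treat the genes of a list as independent draws within 1 library. They are no test of the list, which was chosen with earlier results of these data known. The cell cycle shares, 11.1% (4.41 to 25.3) and 16.7% (7.87 to 31.9) in exp and 13.9% (6.08 to 28.7) in each control, had the share of protein-coding genes inside their intervals in all 4 libraries. Control 2 carried much of the difference, since the p53 network difference of -6 genes was -3.5 without that library. Gene length differed between the branches, with a median of 33.45 kb in the p53 network and 16.65 kb in the cell cycle genes. Over all protein-coding genes the median was 24.09 kb. Members with a peak had a median length of 31.43 kb, and members without one 16.52 kb. Spearman's rho between the number of peaks and gene length was 0.284 over the 59 members and 0.416 over the 20056 protein-coding genes, given as a description, since all genes share the same 4 libraries.

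**Figure D1:**
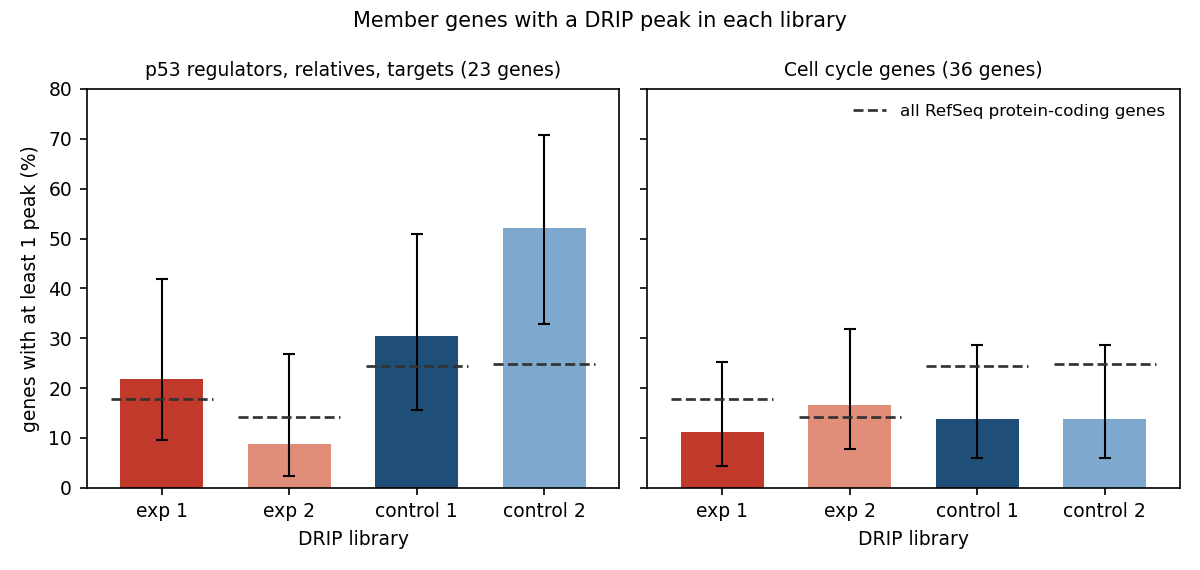
Percent of the 23 p53 network genes (left) and the 36 cell cycle genes (right) with at least 1 assigned peak in each DRIP library; bars are shares, error bars 95% Wilson intervals and dashed lines the share of all RefSeq protein-coding genes. The p53 network bars run between 8.70% and 52.2% with both exp bars below both control bars, while the cell cycle bars stay between 11.1% and 16.7%.

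Counted as peaks, members held 12 and 8 in exp 1 and exp 2, against 17 and 27 in control 1 and control 2. The p53 network had 6 and 2 in exp and 8 and 15 in control, and the cell cycle genes 6 and 6 in exp and 9 and 12 in control. In both branches the groups were separated, with ratios of means of 0.348 and 0.571 (exact permutation p = 0.333 for each). The exp to control ratio of means was 0.455 for member peaks and 0.549 for all peaks assigned to genes (exact permutation p = 0.333 for each). Without control 2 the difference in member peaks was -7 in place of -12. At the equal number of 14354 peaks it was -2.5, with 11 and 8 member peaks in exp against 8 and 16 in control, and the groups overlapped (exact permutation p = 1.0). Peaks covered 5844 and 3556 bases of member loci in exp, and 8138 and 14109 in control.

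TP63, SERTAD1 and BBC3 were called in both controls but not in exp, which is 3 of the 24 members with a peak, beside 8.52% of all 12325 genes with a peak. No member showed the reverse, beside 1.37% of genes. TP73 and CDC25C were called in all 4 libraries, beside 10.9% of genes, and 11 members in a single library, beside 49.3% of genes. At the equal number of 14354 peaks, 1 member was called in both controls and not in exp, and 1 in all 4 libraries. When a library was left out, the other library of its group sufficed, while both of the opposite group were still required. Members called on the control side alone then numbered 6 without exp 1, 5 without exp 2 and 8 without control 1. Members called on the exp side alone numbered 2 without exp 1 and 3 without exp 2, and members in every remaining library 4 without exp 1 and 5 without exp 2.

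**Figure D2:**
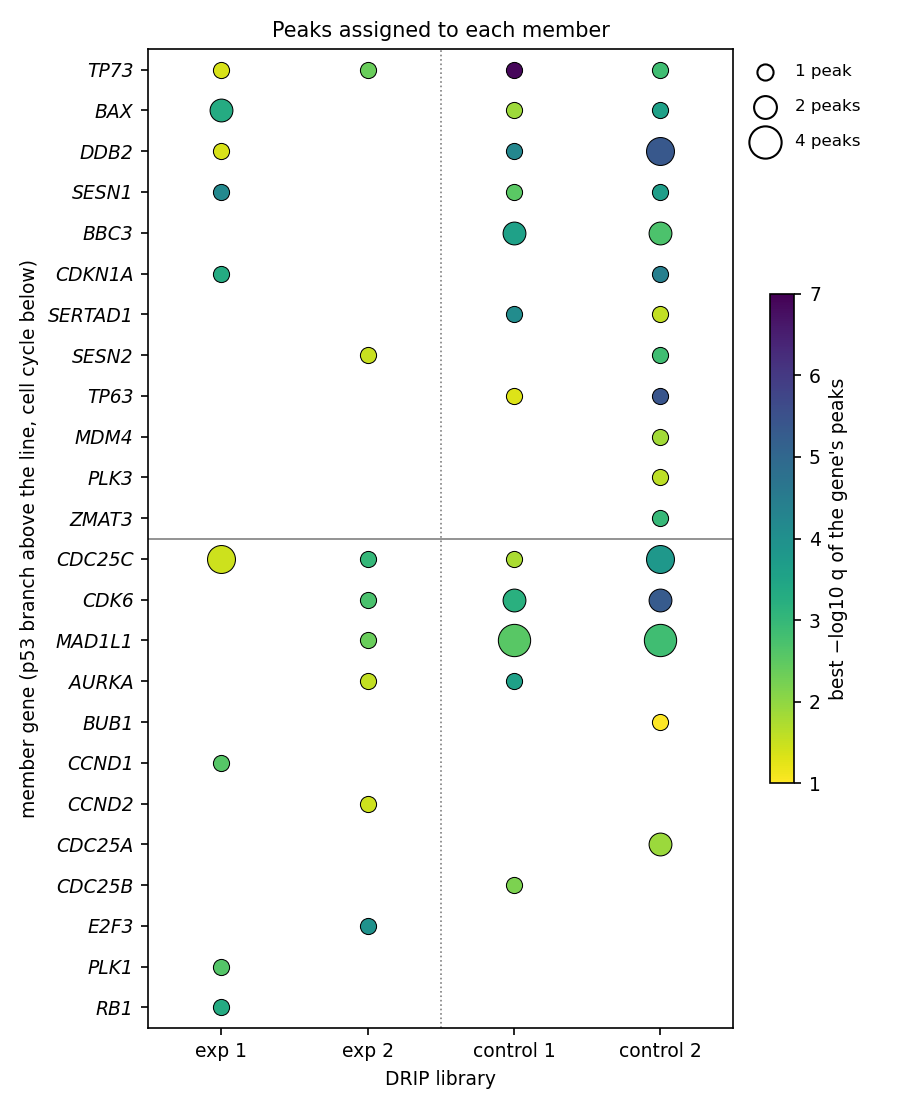
Peaks assigned to the 24 members with at least 1 peak (rows, p53 network above the line) in each DRIP library (columns); circle size gives the number of peaks and colour the best −log10 q among them. The right-hand control columns are filled more densely above the line, where control 2 has a circle in all 12 rows, and 11 of the 24 rows have a circle in 1 column only.

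Among the regulators of p53, MDM4, which binds p53 and holds back its activity, had 1 gene-body peak in control 2 with 30 DRIP and 9 input reads. MDM2, the ubiquitin ligase that degrades p53, and PPM1D, a phosphatase that ends the damage response, had no assigned peak in any library.

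The p53 relatives TP73 and TP63 both carried peaks. TP73 (ENSG00000078900) was called once in every library, with 18 DRIP and 0 input reads in exp 1 and 39 DRIP and 9 input reads in exp 2. Control 1 had 63 DRIP and 10 input reads, and control 2 had 34 and 10. The peak of exp 2 at chr1:3679578-3680125 lay wholly inside those of control 1 (3679433 to 3680203) and control 2 (3679503 to 3680310), about 27.3 kb into a gene of 83.69 kb. The peak of exp 1 was elsewhere, 12.9 kb into the gene. Exact 95% Poisson intervals of the DRIP counts at the shared locus were 27.7 to 53.3 reads in exp 2, and 48.4 to 80.6 and 23.5 to 47.5 in control 1 and control 2. The exp 2 interval overlapped both controls', over peaks of 548, 771 and 808 bp. Such intervals cover counting error only, because PCR copies carry no molecular identifier here and need not be independent. The −log10 q was 2.36 in exp 2, against 6.90 in control 1 and 2.84 in control 2, the first of the controls being the highest value of any member peak. TP63 (ENSG00000073282), a gene of 300.5 kb, had no peak in exp and 1 in each control. That of control 1 (37 DRIP and 0 input reads, −log10 q 1.32) lay 255.0 kb and that of control 2 (29 DRIP and 5 input reads, −log10 q 5.41) lay 268.3 kb from the 5′ end.

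Among targets that act in arrest and stress signalling, 6 of 8 had a peak in some library, beside 41.4% of protein-coding genes. By library they numbered 2 and 1 in exp 1 and exp 2, and 2 and 6 in control 1 and control 2. In CDKN1A (ENSG00000124762), the gene of the cyclin-dependent kinase inhibitor p21, exp 1 had a peak at chr6:36681161-36681584 with 26 DRIP reads (17.0 to 38.1) and 3 input reads. Control 2 had one at chr6:36681173-36681600 with 27 DRIP reads (17.8 to 39.3) and 3 input reads, and exp 2 and control 1 had none. The boundaries of these peaks differed by 12 bp at the start and 16 bp at the end, 4.91 kb into a gene of 10.87 kb, and each count lay inside the other's interval.

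SESN1 (ENSG00000080546), a sestrin of the oxidative stress response, showed the same pair of libraries at 1 locus. Exp 1 had 43 DRIP and 9 input reads at chr6:109038781-109039182, and control 2 had 43 DRIP and 10 input reads at chr6:109038784-109039258, with starts 3 bp apart. Control 1 had a peak elsewhere in the gene with 31 DRIP and 7 input reads, and exp 2 had none. The related SESN2 had a gene-body peak in exp 2 (16 DRIP and 4 input reads), 2.00 kb into the gene. Control 2 had a promoter-class peak there (31 DRIP and 7 input reads), whose centre stood at -1.225 kb, upstream of the gene.

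SERTAD1, a regulator of CDK4 and E2F activity, had no assigned peak in exp. Control 1 had a terminator-class peak (31 DRIP and 4 input reads, −log10 q 4.10) and control 2 a peak classed as both promoter and terminator (18 DRIP and 6 input reads, −log10 q 1.55). The gene is 4.404 kb long and these peaks did not overlap. ZMAT3, an RNA-binding protein, and PLK3, a stress-responsive kinase, had a peak in control 2 alone, with 28 and 31 DRIP reads. TP53INP1 and TIGAR had none.

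Of 7 genes that act in apoptosis, BBC3 and BAX had peaks. BBC3 (ENSG00000105327) encodes PUMA, an activator of mitochondrial apoptosis, and had no assigned peak in either exp library. Control 1 had a gene-body peak with 50 DRIP and 10 input reads and a terminator-class peak with 24 and 5. Control 2 had a gene-body peak with 25 DRIP and 7 input reads and a promoter-class peak with 28 and 8, this last one 55 bp from the RefSeq window. None of the 4 overlapped, and the gene-body peaks of the controls were 547 bp apart. Outside the assignment to BBC3, an intergenic peak 3160 bp upstream of it held 28 DRIP reads in exp 1, against 26 in control 2, and a wider control 1 peak with 65 DRIP reads lay over the same place.

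BAX (ENSG00000087088), the pore-forming protein of the mitochondrial outer membrane, had a region shared by exp 1 and both controls at chr19:48959384-48960167. Exp 1 held 24 DRIP and 2 input reads there, against 23 and 2 in control 1 and 34 and 3 in control 2. The exp 1 peak shared 209 bp with that of control 2 but only 75 bp with that of control 1, so these counts cover partly different bases. The fold enrichments deposited by the authors were 4.55 in exp 1, and 3.58 and 4.73 in control 1 and control 2. A further exp 1 peak with 24 DRIP and 1 input read lay 1.80 kb into this gene of 6.924 kb, and exp 2 had none. PMAIP1, FAS, TNFRSF10B, TP53I3 and AEN had no assigned peak.

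Of the repair genes, DDB2 (ENSG00000134574), which recognises ultraviolet damage for nucleotide excision repair, had peaks in exp 1 and both controls. Exp 1 had 1 gene-body peak with 31 DRIP and 12 input reads (−log10 q 1.36), 11.9 kb from the 5′ end. Control 1 had 32 DRIP and 2 input reads at chr11:47229041-47229431, wholly inside a control 2 peak at chr11:47228844-47229808 with 53 DRIP and 8 input reads. The −log10 q there was 4.22 in control 1 and 5.38 in control 2, and neither exp library had a peak at that locus. Control 2 had 2 more peaks in the gene, with 39 and 31 DRIP reads. XPC and RRM2B had no assigned peak.

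**Figure D3:**
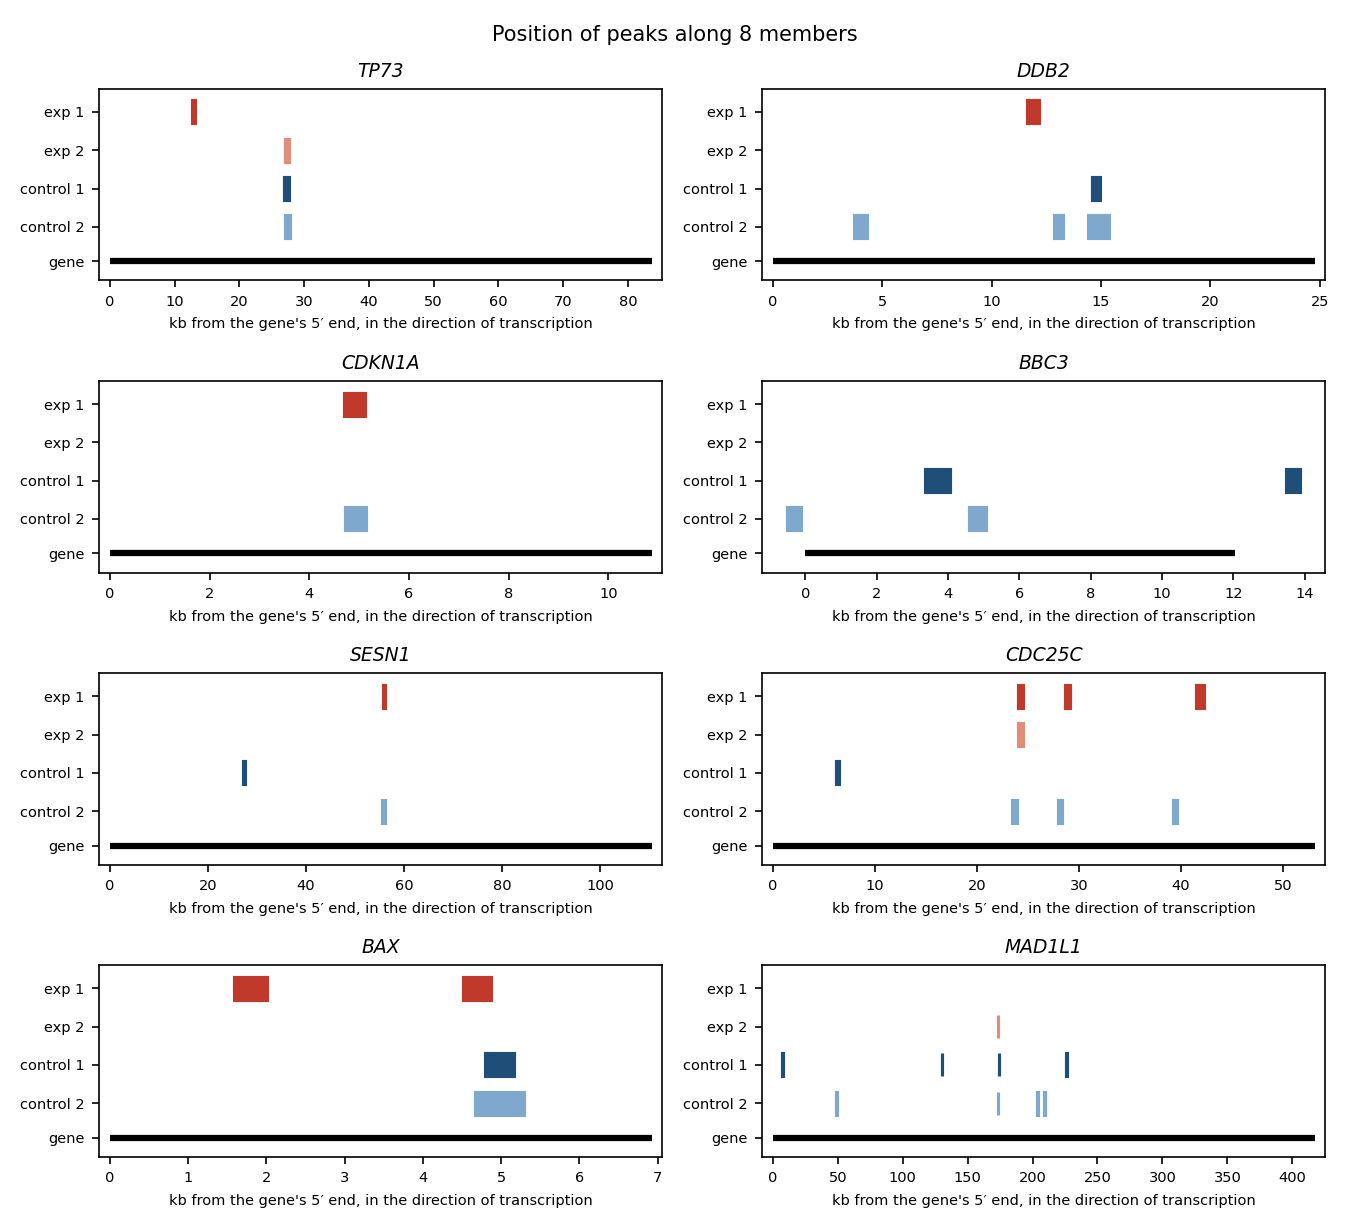
Position of every peak assigned to 8 members, in kb from the gene's 5′ end along the direction of transcription; red bars are exp libraries, blue bars control libraries and the black line the RefSeq gene. TP73 has bars of exp 2 and both controls above one another, BAX bars of exp 1 and both controls, and DDB2 bars of both controls without exp, while most other bars stand alone.

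Among the cell cycle genes, cyclins had peaks in exp libraries alone. CCND1, the cyclin D1 gene, had 1 in exp 1 (30 DRIP and 3 input reads, −log10 q 2.57), and CCND2 had 1 promoter-class peak in exp 2 (18 DRIP and 4 input reads, −log10 q 1.45). No cyclin had an assigned peak in a control, and CCND3, CCNE1, CCNE2, CCNA2 and CCNB1 had none at all. Peaks that lay over CCND3 by RefSeq coordinates, but carried another symbol or none, were called in both groups. RB1, the repressor of E2F, had 1 peak in exp 1 (30 DRIP and 8 input reads), and E2F3 had 1 in exp 2 (22 DRIP and 2 input reads). A control 1 peak inside RB1 was assigned to LPAR6. Another control 1 peak, 344 bp upstream of RB1, was assigned to RB1-DT with a promoter class (23 DRIP and 4 input reads). CCND1, CCND2, RB1 and E2F3 were each called in 1 library, and such single calls made up 49.3% of all genes with a peak.

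CDK6 (ENSG00000105810), the kinase partner of D-type cyclins, had no peak in exp 1 and 1 in exp 2 (42 DRIP and 11 input reads), 35.0 kb into a gene of 231.7 kb. Control 1 had 2 peaks (57 DRIP and 19 input reads, and 29 and 11) and control 2 had 2 (43 and 9, and 31 and 15). No peaks of different libraries overlapped in CDK6, the nearest being those of exp 2 and control 1, 947 bp apart. The best −log10 q was 2.71 in exp 2, against 3.20 in control 1 and 5.30 in control 2. CDK1, CDK2 and CDK4, the inhibitors CDKN1B, CDKN1C, CDKN2A and CDKN2B, the factors E2F1 and E2F2, the Rb relatives RBL1 and RBL2, and the licensing factors CDC6 and CDT1 had no assigned peak.

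CDC25C (ENSG00000158402) was called in all 4 libraries, with 3 peaks in exp 1, 1 in exp 2, 1 in control 1 and 3 in control 2. Both exp libraries shared a locus at chr5:138313851-138314363, 24.2 kb into the gene, with 37 DRIP and 11 input reads in exp 1 and 33 and 12 in exp 2. Of 55 member regions it was the one called in both exp libraries and no control, and the share of such regions over all genes is not given here. The nearest control peak, from control 2 with 35 DRIP and 10 input reads, began 23 bp beyond the exp 1 peak, so the loci of the groups adjoin. The −log10 q was 1.46 in exp 1 and 3.01 in exp 2, against 1.09 at the adjoining control 2 peak. CDC25A, which acts at the start of S phase, had 2 peaks in control 2 alone (30 and 26 DRIP reads), and WEE1, which opposes the CDC25 phosphatases, had none.

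Of the 9 mitotic genes, AURKA, MAD1L1, PLK1 and BUB1 had peaks. AURKA, the Aurora A kinase of the spindle poles, had 28 DRIP and 11 input reads in exp 2, against 64 and 22 in control 1, at places that did not overlap, 6.69 kb and 2.78 kb from the 5′ end. MAD1L1 (ENSG00000002822), a spindle checkpoint protein and at 417.2 kb the longest member, had 0 and 1 peaks in exp 1 and exp 2, against 4 and 4 in control 1 and control 2. At 1 of these loci the exp 2 peak, chr7:2059274-2059711 with 26 DRIP and 3 input reads, shared 276 bp with a control 2 peak of 22 DRIP and 2 input reads. A control 1 peak of 21 DRIP and 4 input reads lay 376 bp away. PLK1, a kinase of mitotic entry, was called in exp 1 alone (20 DRIP and 2 input reads), and BUB1, a checkpoint kinase, in control 2 alone (19 and 0). AURKB, BUB1B, CDC20, MAD2L1 and MKI67 had none.

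When overlapping peaks were merged, the 64 member peaks formed 55 regions, of which 7 (12.7%) were called in 2 or more libraries, beside 18.2% of the 28189 regions with a peak assigned to any gene. TP73 and BAX had the 2 regions called in 3 libraries, and none was called in 4. CDC25C had 1 region in both exp libraries alone and DDB2 had 1 in both controls alone, each 1.82% of the 55. The matching shares over all regions are not given here, so these counts cannot be read as high or low. Regions of CDKN1A, SESN1, MAD1L1, TP73 and BAX held peaks of both groups. The count of 7 was 4 without exp 1 and 3 without control 2.

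By the deposited classes, 55 of the 64 member peaks (85.9%) lay in the gene body alone, beside 79.6% of all peaks assigned to genes. A promoter class was given to 5 (7.81%, beside 12.2%), in BBC3, CCND2, CDC25C, SERTAD1 and SESN2, and a terminator class to 5 (7.81%, beside 10.1%). Promoter-class member peaks numbered 0 and 1 in exp 1 and exp 2, against 1 and 3 in control 1 and control 2, with overlapping groups (exact permutation p = 0.667). Among all peaks assigned to genes, promoter classes numbered 680 and 554 in exp and 1796 and 1344 in control, a ratio of means of 0.393. As shares these were 9.45% and 10.1% in exp, and 15.5% and 11.6% in control. The members' difference of -1.5 was -0.5 without control 2 and -2.5 without control 1. It was 0 at the equal number of 14354 peaks, with 0 and 1 in exp against 0 and 1 in control, -0.5 at a −log10 q of 2 or more and 0 at 5 or more, where no such peak was left.

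Every member peak held more DRIP than input reads, as did all but 193 (0.539%) of the 35797 peaks assigned to genes. In member peaks the DRIP reads ran between 15 and 64 per peak, with medians of 29.5 and 27 in exp and 31 and 30 in control. Summed over member peaks, DRIP reads per input read were 4.97 and 4.00 in exp, against 5.09 and 4.84 in control, without scaling for depth. The exp mean was 4.49 ± 0.687 and the control mean 4.96 ± 0.174 (SD, n = 2 each), with overlapping groups (exact permutation p = 0.667). Over all peaks assigned to genes this ratio of sums was lower in each library, at 3.05 and 2.46 in exp and 3.86 and 3.06 in control. Median fold enrichments per peak did not share that order. They were 3.70 and 3.94 for members in exp, beside 3.72 and 3.82 for all peaks assigned to genes. In control 1 and control 2 they were 3.74 and 4.16 for members, beside 4.03 and 3.81. The median −log10 q of member peaks was 2.01 and 2.36 in exp, against 2.40 and 2.70 in control. A −log10 q of at least 5 was reached by 4 member peaks (6.25%, beside 12.3% of all peaks assigned to genes), in TP73, TP63, DDB2 and CDK6. Of these, 1 came from control 1 and 3 from control 2. Among all peaks assigned to genes, 11.2% and 10.2% reached it in exp 1 and exp 2, and 16.9% and 9.44% in control 1 and control 2. Member peaks numbered only 12 and 8 in exp, against 17 and 27 in control.

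**Figure D4:**
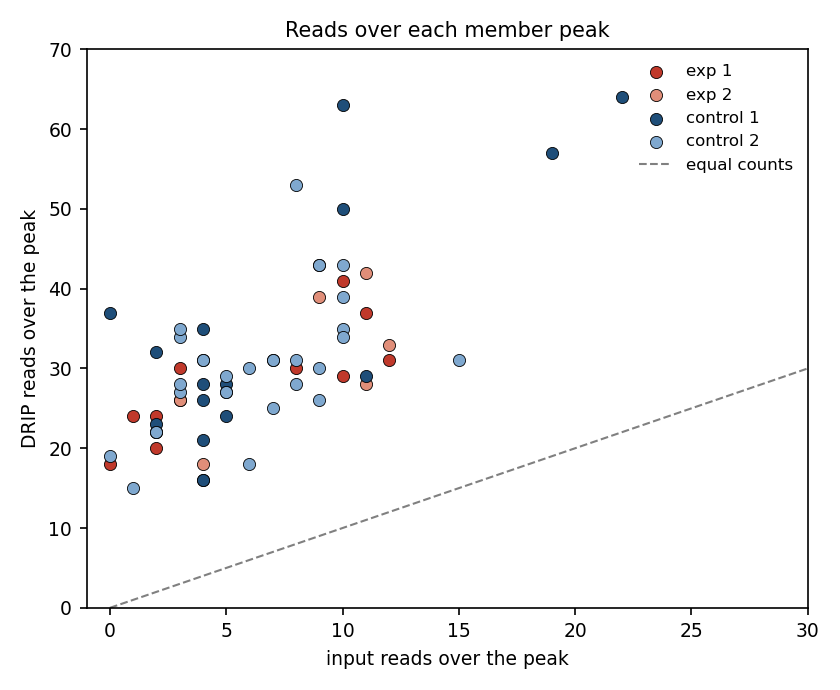
DRIP reads against input reads over each of the 64 member peaks, one point per peak, coloured by library (red tones exp, blue tones control); the dashed line marks equal counts, without scaling for depth. All points lie above the line, between 15 and 64 DRIP reads, and the 3 highest points are AURKA, TP73 and CDK6 peaks of control 1.

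GC skew, the excess of G over C, was read on the coding strand, by turning the deposited score to the direction of the gene. The member peaks had a median of 0.0734, and 40 of 64 (62.5%) were above 0, beside a median of -0.00890 and 48.2% above 0 for all peaks assigned to genes. In the p53 network 21 of 31 peaks were above 0, and in the cell cycle genes 19 of 33. By library the medians of member peaks were 0.0748 and -0.101 in exp, and 0.103 and 0.0614 in control. Several loci called in more than 1 library ran the other way, with fewer G than C on the coding strand. At the shared SESN1 locus the skew was -0.852 in exp 1 and -0.782 in control 2. At MAD1L1 it was -0.625 in exp 2, against -0.638 in control 2. TP73 had -0.519 in exp 2, against -0.451 and -0.401 in control 1 and control 2, and CDKN1A -0.364 in exp 1 against -0.401 in control 2. The shared regions of BAX, DDB2 and CDC25C had positive skew in every library that called them, with 0.224 in exp 1 against 0.0787 and 0.130 in the controls at BAX. The score describes the bases under each peak, so at a given locus it varies with the peak's boundaries and is no measure of the condition.

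**Figure D5:**
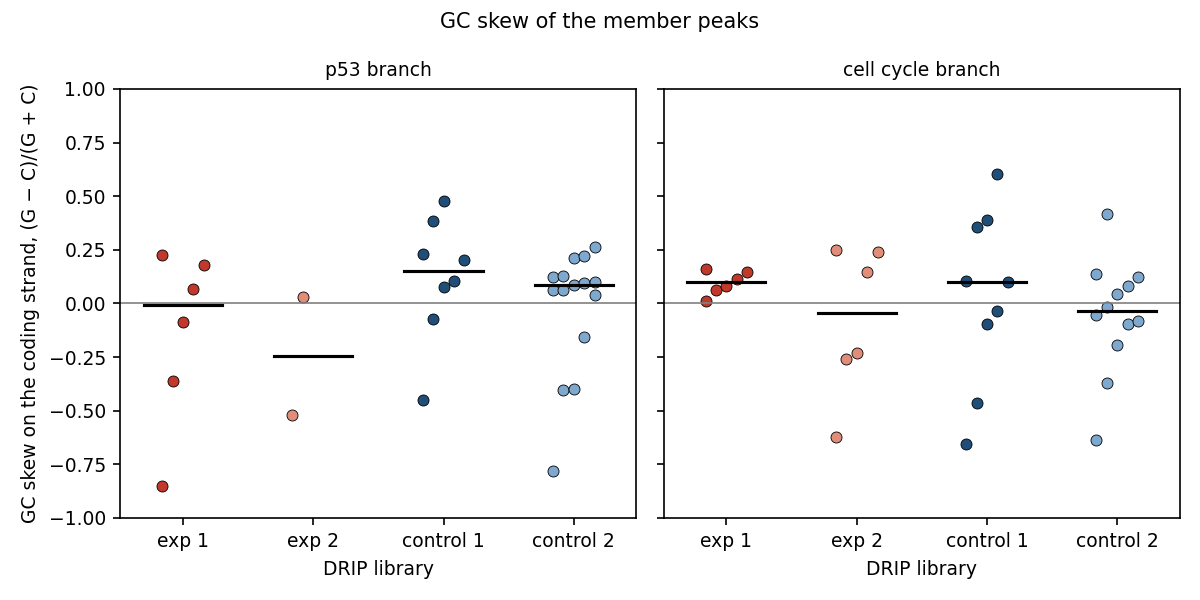
GC skew on the coding strand, (G − C)/(G + C), of each member peak by library, for the p53 network (left) and the cell cycle genes (right); points are peaks and horizontal bars medians. The lowest point, at -0.852, is the exp 1 peak in SESN1, and the highest, at 0.602, a control 1 peak in MAD1L1.

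The wider pathways were read from 2 longer lists of other genes. Of 40 further p53 pathway genes, 16 had a peak in some library, 8 and 4 of them in exp 1 and exp 2 and 9 and 6 in control 1 and control 2, so the groups overlapped. For comparison, 41.4% of all protein-coding genes had a peak in some library, 17.8% and 14.3% in exp 1 and exp 2 and 24.4% and 24.9% in control 1 and control 2. BCL2, the inhibitor of apoptosis, was called in all 4 libraries, with 57 and 60 DRIP reads in exp and 57 and 30 in control. Its peaks lay between 63197842 and 63199699 of chromosome 18, with a coding-strand skew between 0.284 and 0.480. Of 61 further cell cycle genes, 31 had a peak, 7 and 11 of them in exp and 12 and 21 in control, with groups that did not overlap, an order that all protein-coding genes also showed. KIF11, the kinesin of the spindle, and STAG1, a cohesin subunit of 416.1 kb, were called in all 4 libraries, as were 10.9% of all genes with a peak. CDC23, a subunit of the anaphase-promoting complex, was called in both controls and no exp library, as were 8.52% of all genes with a peak, with promoter-class peaks of 19 DRIP reads in control 1 and 53 in control 2. Neither longer list had a gene called in both exp libraries and no control.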

How the data were processed

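Per the labels, sonicated genomic DNA of PC-9 cells was precipitated with S9.6 and amplified by PCR for a number of cycles that depended on the material. The submitters' processing notes list the build GRCh38 (hg38) and the tools DiffBind, MACS2, Bowtie2, cutadapt and FastQC, with versions and settings not given in the sources used here. Each DRIP library has 1 peak list, deposited by the authors. Per the file headers, a peak carries whole-number read counts of the DRIP and input library, without normalization, and each library was counted over its own peaks only. The fold enrichment deposited by the authors is a ratio over a local background and was used only to describe peaks. The columns of p-values and q-values that the authors deposited were read as −log10, although the headers mention a further multiplier, since their values fit a caller's usual threshold only on that scale. The score for GC skew that the authors deposited refers to the reference strand, as checked against RefSeq promoter sequences (r = 0.967 and 0.986 for genes of the 2 strands), and its sign was turned for minus-strand genes.

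Sample titles gave the groups and replicate numbers. The 59 genes and the longer lists were chosen with earlier results of these data known. All members are accounted for. Members called in 2 or more libraries are given by library, and from the longer lists those called in both libraries of 1 group alone or in all 4. Peaks that overlapped by 1 bp or more were merged into regions. Per-library values were tested by exact permutation, two-sided, with scipy 1.17.1. Shares have Wilson intervals and counts exact Poisson intervals at 95%. Relative depth was estimated by solving fold enrichment and p for whole reads at the summit, which succeeded for at least 99.98% of peaks. The lowest common background was then divided by the shortest peak width, 333 and 329 bp in exp 1 and exp 2, and 294 and 343 bp in control 1 and control 2. All 59 symbols matched RefSeq GRCh38.p14. A planned count test over regions with exactly 1 peak in each library (1370 regions) was not run, because none of them holds a member, and since no test ran across features no simulation was made. Alternatives were peak thresholds, equal peak numbers, peaks with more DRIP than input reads, gene assignment by RefSeq overlap, a stricter overlap, left-out libraries and the replicate number as a block. No libraries shared identical peaks. Whole-library totals, the IgG aliquot and the spike-in were not analysed here. The precision of a single peak rests on its 15 to 64 reads.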

Additional observations from a re-analysis of the deposited data

How the results depend on the processing

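With the same 14354 peaks in every library, the exp minus control differences were -1.5 members (-6 as reported), -3.5 p53 network genes (-6), 2.0 cell cycle genes (0), -2.5 member peaks (-12) and 0 promoter-class peaks (-1.5), and none of the groups was separated except for the cell cycle genes, higher in exp. At −log10 q of at least 5 they were -2 members, -1.5 p53 network genes, -0.5 cell cycle genes, -2 member peaks and 0 promoter-class peaks, and at 2 they were -5, -5, 0, -7.5 and -0.5 in the same order. Members called in both controls and no exp library, 3 as reported, numbered 0 at −log10 q of at least 5, 1 at equal peak number and 4 to 8 with a library left out. Members called in both exp libraries and no control, 0 as reported, numbered 0 to 3 with a library left out. Members in every library, 2 as reported, numbered 0 at −log10 q of at least 2 and 0 at 5, 1 at equal peak number and 2 to 5 with a library left out. Regions in 2 or more libraries, 7 as reported, numbered 0 at −log10 q of at least 5 and 3 to 6 with a library left out. The exp minus control difference in the members' share of genes with a peak, -0.0182 percentage points, was -0.00371 at equal peak number, -0.192 at −log10 q of at least 5 and 0.0179 without control 2, and between -0.0544 and 0.0179 over the left-out libraries. Other differences ran between -8.5 and -3.5 members, -8.5 and -3.5 p53 network genes, -1 and 1 cell cycle genes, -17 and -7 member peaks and -2.5 and -0.5 promoter-class peaks with a library left out. With replicate numbers as a block, the differences stayed -6 members, -6 p53 network genes, 0 cell cycle genes, -12 peaks and -1.5 promoter-class peaks, where the smallest two-sided p is 0.5. No pairing by replicate number was seen, as over 12325 genes deviations with the same number correlated at -0.0405 in presence and -0.0832 in number of peaks. Peak calls this sparse cannot exclude that libraries of the same number shared a culture or batch. The cause of these changes was not tested, beyond the lower number of peaks or libraries in each setting. The planned count test over shared regions, and its alternatives, were not run because no such region holds a member. With 2 libraries a group no p can fall below 0.333, and a gene without a peak in a library may still carry reads there, which these lists do not show.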

Other observations

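Some peaks overlapped a member by RefSeq coordinates but were assigned to another gene or to none. They numbered 4 and 2 in exp 1 and exp 2 and 3 and 3 in control 1 and control 2, over 6 members. CCND3, the cyclin D3 gene, accounted for 7 of these 12, with 3 in exp 1, 1 in exp 2, 1 in control 1 and 2 in control 2, although no peak carries its symbol. Of those 7, 6 were classed as intergenic and 1 as the terminator of AL513008.1, and they held between 19 and 51 DRIP reads. In CDC25B an exp 1 peak classed as intergenic held 53 DRIP and 10 input reads. A control 1 peak inside RB1 was assigned to LPAR6, a gene that lies within it, with 24 DRIP and 3 input reads and a −log10 q of 6.98. This exceeds the −log10 q of any peak carrying a member's symbol. RBL2, E2F1 and AEN each had 1 such peak, with 26 DRIP reads in exp 2, 27 in control 1 and 23 in control 2.

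A further 25 peaks lay within 5 kb of 14 members, 7 and 1 of them in exp 1 and exp 2 and 10 and 7 in control 1 and control 2. Downstream of SERTAD1 an intergenic stretch held 51 DRIP reads in exp 1, against 34 and 43 in 2 peaks of control 1 and 20 and 49 in 2 peaks of control 2. On the upstream side of the gene, an exp 1 peak of 27 DRIP and 4 input reads had a −log10 q of 5.03. Near BAX, peaks assigned to AC026803.2 held 61 DRIP and 25 input reads in exp 1 and 60 and 25 in control 1, both starting at 48965324 of chromosome 19, with −log10 q of 11.9 in exp 1 and 5.47 in control 1.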
